A study of Homo sapiens with 6 samples.

Results

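The genes described here are 38 DNA repair and checkpoint genes, chosen by symbol from the 34371 features of the count table. All 38 had a row, and all 38 passed the filter on low counts. They comprise 19 genes of homologous recombination and the Fanconi anaemia pathway, 15 genes of other repair paths and 4 checkpoint kinases. They were measured in ME-1, a line of human acute myeloid leukaemia cells with the CBFB::MYH11 fusion gene. The 3 SPNS2 libraries came from cells transduced with a vector that overexpresses SPNS2, which carries sphingosine-1-phosphate out of cells, and the 3 control (CTRL) libraries from cells transduced with the empty vector. Cells of both groups had therefore been through infection and selection. Both groups rest on 1 cell line, and whether libraries of the same group are separate cultures is not stated in the labels, so p-values measure only the spread between these libraries, which may be technical.

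Homologous recombination copies an intact sister chromatid to mend a double-strand break, and so works in S and G2 phase. The Fanconi anaemia proteins detect DNA crosslinks at stalled replication forks, and a core complex attaches ubiquitin to FANCD2 and FANCI before the lesion is cut out and repaired by recombination. Non-homologous end joining religates breaks without a template, and mismatch, base excision and nucleotide excision repair remove wrong, damaged or bulky bases. ATM and ATR are kinases that sense breaks and stalled forks, and CHEK2 and CHEK1 are the kinases they activate to hold the cell cycle. Several of these genes are known to be transcribed mostly in cycling cells, under E2F factors.

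Polyadenylated RNA was sequenced to 31361562 to 33540256 counts a library in SPNS2 and 28605187 to 38489992 in CTRL. Counts for the vector's SPNS2 sequence, listed apart from the native gene, were 25283, 24792 and 25752 in SPNS2 libraries and 9, 3 and 0 in CTRL libraries. All 8 myeloid markers examined, among them MPO and SPI1, reached a mean of at least 1 CPM (counts scaled to a shared library total). Their summed level, 28000 to 29470 CPM in SPNS2 libraries and 28090 to 28540 CPM in CTRL libraries, was mostly MPO (26000 ± 759 CPM in SPNS2 and 26140 ± 221 CPM in CTRL; SD, n = 3 each), and single markers differed: CD33 fell (log2 fold change -0.71, edgeR adjusted p = 2.45e-06), and KIT (0.55), PTPRC (0.26) and RUNX1 (0.13) rose, with edgeR adjusted p-values of 3.68e-08, 0.00056 and 0.00571. The part of these differences in the results below was not tested. Among markers of other cell types, MS4A1, HBB and HBA1 were at 0 in every library, and T cell markers summed to 2.80 to 3.38 CPM in SPNS2 and 3.60 to 4.57 CPM in CTRL. That sum was mostly CD8A, at 2.27 CPM in SPNS2 and 3.66 CPM in CTRL (log2 fold change -0.69, edgeR adjusted p = 0.00826). CD3E went the other way, at 0.892 CPM in SPNS2 and 0.494 CPM in CTRL (0.87, edgeR adjusted p = 0.0298), and CD3D held 1 count in total. The epithelial adhesion protein EPCAM was present, at 142 ± 1.45 CPM in SPNS2 and 124 ± 4.57 CPM in CTRL (SD, n = 3 each), while KRT8 and CDH1 were below 1 CPM. The fibroblast markers COL1A1, COL1A2 and PDGFRB summed to 0.0637 to 0.216 CPM in SPNS2 and 0.124 to 0.246 CPM in CTRL.

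Because recombination and Fanconi genes are known as E2F-controlled, the promoters of the members were read for E2F letters, and those of genes that fell are shown first. The sequences are from RefSeq (GRCh38.p14), in windows of 250 bases before to 50 after each gene's start. The letters searched on both strands were TTTCCCGC, TTTCGCGC, TTTGCCGC and TTTGGCGC; matches on opposite strands can overlap each other. Capitals mark the match in each 30-base stretch, read 5′ to 3′ on the gene's strand.
FANCA: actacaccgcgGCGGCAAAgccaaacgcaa
FANCD2: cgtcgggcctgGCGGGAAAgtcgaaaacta
XRCC2: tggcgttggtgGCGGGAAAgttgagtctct
EXO1: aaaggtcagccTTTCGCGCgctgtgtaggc
UNG: gagggaggtttTTTGCCGCgaaaagaccac
XRCC6: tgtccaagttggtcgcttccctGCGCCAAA
For comparison, XPC and MSH3 carry such letters and did not pass the test of expression described below.
XPC: cctgcgcccTTTCCCGCctctcgcgagaac
MSH3: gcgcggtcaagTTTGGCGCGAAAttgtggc
The stretches lie at chr16:89816801-89816830 on the minus strand for FANCA, chr3:10026424-10026453 on the plus strand for FANCD2 and chr7:152676102-152676131 on the minus strand for XRCC2. Those of EXO1, UNG and XRCC6 are on the plus strand at chr1:241848197-241848226, chr12:109098098-109098127 and chr22:41621315-41621344. XPC lies at chr3:14178822-14178851 on the minus strand and MSH3 at chr5:80654534-80654563 on the plus strand, where 2 matches overlap.

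Relative to the start, the match begins at position -172 in FANCA, -63 in UNG and -2 in FANCD2, and at position 5 in EXO1, 22 in XRCC2 and 43 in XRCC6. In members that did not pass, matches begin at -241 in XPC, -107 and -103 in MSH3, -172 and -46 in FANCC and 4 in MSH6. In PMS2 the match begins at -100 or -43, depending on the start used. Of 35 members with a promoter in the RefSeq table, 11 (31.4%) held at least 1 such match, against 1090 of 27305 genes (3.99%) in the whole table and 3.31% of its single windows. Among members that fell in SPNS2 libraries, 6 of 12 with a promoter held one, and among members that did not pass the threshold 5 of 22 did. It was held by 4 of 18 recombination and Fanconi genes and by 7 of 13 genes of other repair paths. The CHR letters TTTGAA and TTCGAA were found for 1 of the 12 members that fell, for 5 of 22 that did not pass and for 19.5% of all genes (16.4% of windows). The letters CCAAT, which can stand beside either, were found for 6 of 12 and 13 of 22 members and for 39.7% of all genes (34.6% of windows). These matches describe the letters in the windows and were not tested against expression. The whole table holds genes whether or not these cells express them, whereas every member passed the filter on low counts. The shares of the whole table are therefore not a like background for the members.

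Most members that changed were lower with SPNS2. Of the 38 genes, 14 fell, 1 rose and 23 did not pass an adjusted p of 0.05 in the edgeR quasi-likelihood test, against 12.6% of all 13308 tested features that fell and 11.9% that rose (24.5% in either direction). The falls were small, the least being 7.91% for FANCG and the most 22.2% for FANCA, and the median log2 fold change over all 38 was -0.07 beside 0.0026 over all features. In 15 members every SPNS2 library was below every CTRL library, and in 2 every SPNS2 library was above, against 20.3% and 19.8% of all tested features (40.1% in either direction). Of the 15 members past the threshold, 13 remained past it in each of 14 alternative fits, with adjusted p-values of at most 0.0497; the exceptions are FANCG and LIG4.

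**Figure D1:**
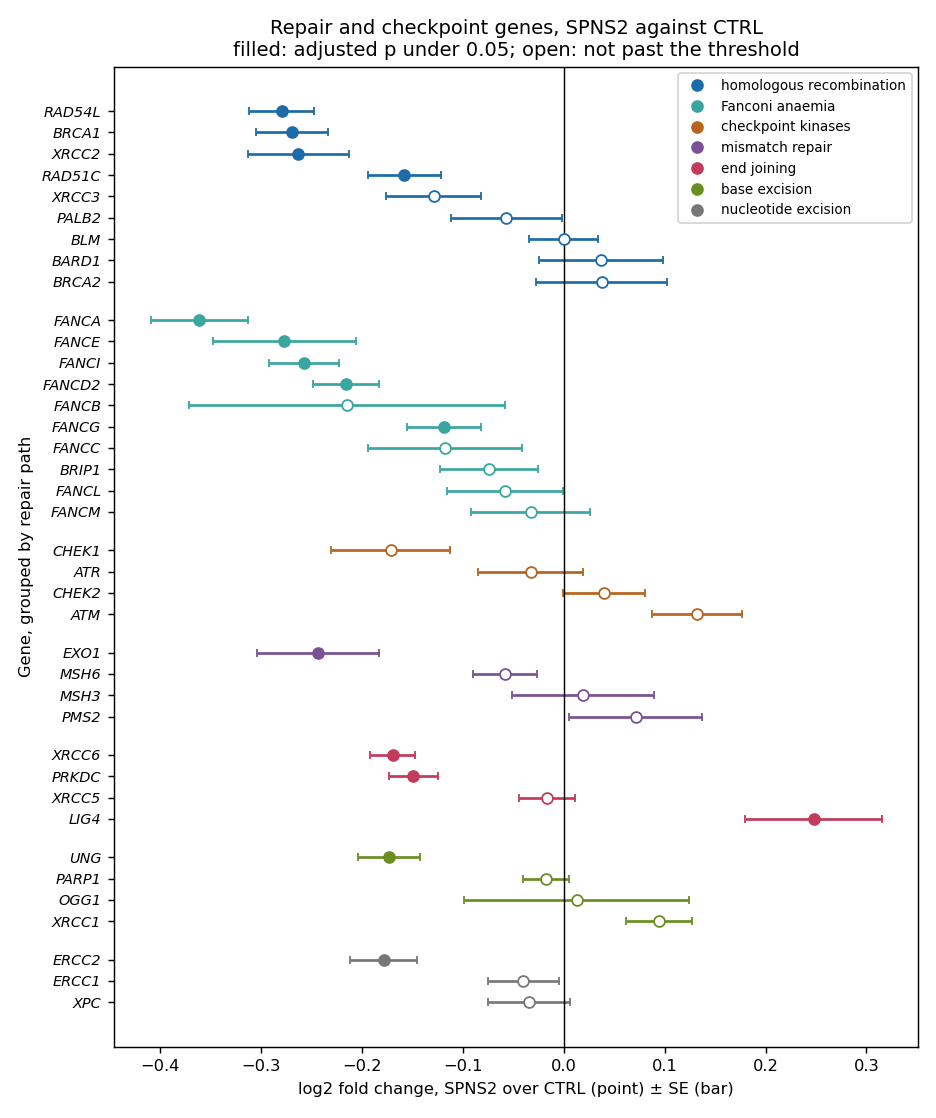
Each point is the log2 fold change of 1 gene, SPNS2 over CTRL, with its standard error, grouped by repair path; filled points passed an adjusted p of 0.05 (edgeR, 3 libraries a group). The filled points lie left of 0 except LIG4, and FANCA is the farthest left at -0.36.

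Homologous recombination and Fanconi genes held 9 of the 14 falls. Of their 19 genes, 9 (47.4%) fell, against 12.6% of all tested features, and the other 10 missed the threshold. Their median log2 fold change was -0.13, and 17 of 19 values were below 0, beside 6559 of 13308 over all tested features. In the other repair paths, 5 of 15 genes (33.3%) fell and 1 (6.67%) rose, against 12.6% and 11.9% of all tested features. Their median was -0.03, and 10 of 15 values were below 0. This median was -0.0531 without SPNS2 library 1, -0.0144 without SPNS2 library 3 and -0.0149 without CTRL library 1, and the rise was lost without SPNS2 library 1 or 2 or CTRL library 2 or 3. In the fits that lost the rise, 7.98% to 9.43% of all tested features rose. The difference between the 47.4% and the 33.3% that fell was not tested, and the members were chosen with earlier results of these data known. Counting EXO1, which acts in mismatch repair and in the resection of breaks, with recombination made it 10 of 20 genes against 4 of 14.

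Of the 9 recombination genes among the members, 4 fell, against 12.6% of all tested features: BRCA1, RAD54L, XRCC2 and RAD51C. BRCA1, which with BARD1 forms a ubiquitin ligase that promotes resection of broken ends, was at 43.8, 42.1 and 43.2 CPM in SPNS2 libraries, against 52.3, 53.3 and 50.1 CPM in CTRL libraries. Its groups did not overlap, and BRCA1 fell by 17.1% (log2 fold change -0.27, SE 0.0356, edgeR adjusted p = 0.000348). RAD54L, a DNA translocase that helps strands exchange during recombination, was at 37.95, 38.2 and 38.6 CPM in SPNS2 and 47.1, 45.7 and 46.5 CPM in CTRL. The libraries of each group lay close together, and RAD54L had the smallest p of the recombination members (log2 fold change -0.28, SE 0.0322, edgeR adjusted p = 0.000145).

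XRCC2, RAD51C and XRCC3 belong to complexes that assist strand exchange, and 2 of these 3 genes fell. XRCC2 was at 24.2, 23.2 and 22.7 CPM in SPNS2 libraries and 26.6, 29.01 and 28.6 CPM in CTRL libraries (log2 fold change -0.26, edgeR adjusted p = 0.00321). RAD51C was at 34.8, 34.8 and 34.5 CPM in SPNS2 and 37.6, 39.1 and 39.5 CPM in CTRL (log2 fold change -0.16, edgeR adjusted p = 0.00895). Both had SPNS2 libraries below all CTRL libraries. XRCC3, at 38.1 ± 1.40 CPM in SPNS2 and 41.6 ± 2.42 CPM in CTRL (SD, n = 3 each), overlapped and did not pass (log2 fold change -0.13, edgeR adjusted p = 0.0663). It passed without CTRL library 2 (-0.17, adjusted p = 0.0212), and its adjusted p over the alternatives was 0.0212 to 0.241.

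Among the members, the BRCA1 partners BARD1, PALB2 and BRCA2 did not pass the threshold, beside 10045 of 13308 tested features that did not. BARD1 was at 12.2 ± 0.461 CPM in SPNS2 and 11.9 ± 0.101 CPM in CTRL (SD, n = 3 each). PALB2, which links BRCA1 to BRCA2, was at 25.1 ± 0.509 CPM in SPNS2 and 26.2 ± 1.84 CPM in CTRL. BRCA2, a mediator of recombination, was at 14.5 ± 0.994 CPM in SPNS2 and 14.1 ± 0.505 CPM in CTRL. All 3 overlapped between groups, as did 7966 of 13308 tested features. The log2 fold changes of BARD1, PALB2 and BRCA2 were 0.04 (SE 0.0615), -0.06 (SE 0.0548) and 0.04 (SE 0.0648). BLM, a helicase that takes apart crossed DNA strands, was at 47.8 ± 1.58 CPM in SPNS2 and 47.8 ± 0.161 CPM in CTRL. Whether BRCA1 and BARD1 differ in their response was not tested.

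In the Fanconi pathway, 5 of 10 genes fell, against 12.6% of all tested features. All 10 had log2 fold changes below 0, beside 6559 of 13308 over all tested features. FANCA, the largest fall among all members, belongs to the core complex and was at 34.1, 37.0 and 38.4 CPM in SPNS2 libraries, against 47.6, 44.5 and 48.4 CPM in CTRL libraries. The highest SPNS2 library was below the lowest CTRL library (log2 fold change -0.36, SE 0.0483, edgeR adjusted p = 0.000367). FANCE, which joins the core complex to FANCD2, was at 8.70, 9.01 and 9.52 CPM in SPNS2 and 10.8, 11.1 and 11.1 CPM in CTRL (log2 fold change -0.28, SE 0.0707, edgeR adjusted p = 0.0153). It has few reads. Its groups did not overlap, but this rests on the same values as the test and is not separate support.

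FANCD2 and FANCI are the pair that receives ubiquitin, and both fell. FANCD2 was at 71.3, 74.3 and 70.4 CPM in SPNS2 libraries and 84.1, 81.6 and 85.0 CPM in CTRL libraries (log2 fold change -0.22, SE 0.0327, edgeR adjusted p = 0.000789). FANCI was at 69.0, 70.0 and 69.4 CPM in SPNS2 and 86.3, 83.1 and 79.5 CPM in CTRL (log2 fold change -0.26, SE 0.0351, edgeR adjusted p = 0.000416). FANCD2 fell by 13.9% and FANCI fell by 16.4%. Per kilobase of the longest GENCODE 29 coding transcript, the levels of the partners were near each other, at 13.8 CPM per kb for FANCD2 and 14.6 for FANCI in SPNS2, and 16.0 for FANCD2 and 17.5 for FANCI in CTRL.

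FANCG, another core complex protein, fell by less than the others and its call was not stable. It was at 41.7, 39.7 and 41.4 CPM in SPNS2 libraries and 45.4, 44.8 and 43.0 CPM in CTRL libraries (log2 fold change -0.12, edgeR adjusted p = 0.0359). The adjusted p was 0.0681, 0.130 and 0.0732 without SPNS2 library 1, 2 or 3, 0.128 without CTRL library 1 and 0.0968 without CTRL library 2, within a range of 0.0333 to 0.130 over all alternatives. FANCC, FANCB, FANCL (the ubiquitin ligase of the complex), FANCM (its DNA translocase) and the helicase BRIP1 did not pass. FANCC was at 9.52 ± 0.0694 CPM in SPNS2 and 10.3 ± 0.743 CPM in CTRL (SD, n = 3 each), with groups that did not overlap but an edgeR adjusted p of 0.299. FANCB was the member with the fewest counts, 857 over the 6 libraries, and its log2 fold change of -0.21 had an SE of 0.157.

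**Figure D2:**
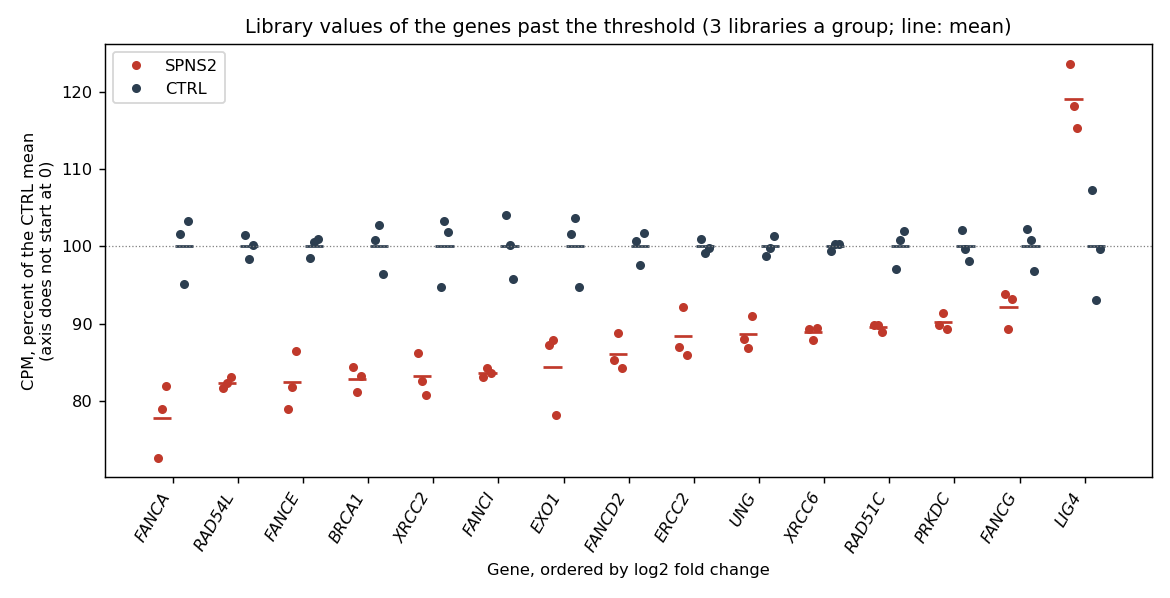
Points are CPM in single libraries as a percent of the CTRL mean of each gene, SPNS2 in red and CTRL in dark blue, for the 15 genes past the threshold; lines are group means. In each gene the 3 SPNS2 points stand apart from the 3 CTRL points, below them in 14 genes and above them in LIG4. The genes were selected by a test on these same values, so the separation is not separate support.

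Non-homologous end joining genes went in both directions. XRCC6, the Ku70 subunit that binds broken ends, was at 394, 387 and 394 CPM in SPNS2 libraries and 438, 442 and 442 CPM in CTRL libraries (log2 fold change -0.17, SE 0.0222, edgeR adjusted p = 0.00033). PRKDC, the kinase DNA-PKcs that Ku recruits, was at 389.5, 396 and 387 CPM in SPNS2 and 443, 432 and 426 CPM in CTRL (log2 fold change -0.15, SE 0.0245, edgeR adjusted p = 0.00131). In both genes all SPNS2 libraries lay below all CTRL libraries.

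XRCC5, the Ku80 partner of XRCC6, was at 159.5 ± 3.78 CPM in SPNS2 and 161 ± 1.34 CPM in CTRL (SD, n = 3 each; log2 fold change -0.02, SE 0.0276). Its groups overlapped. LIG4, the ligase that seals the joined ends, was the one member that rose, at 14.8, 14.1 and 13.8 CPM in SPNS2 libraries and 12.8, 11.1 and 11.9 CPM in CTRL libraries (log2 fold change 0.25, SE 0.0677, edgeR adjusted p = 0.0212). All 3 SPNS2 libraries were above all 3 CTRL libraries, but the adjusted p of LIG4 was 0.0729 without SPNS2 library 1, 0.0561 without SPNS2 library 2, 0.0693 without CTRL library 2, 0.0602 without CTRL library 3 and 0.0542 with DESeq2, within a range of 0.0128 to 0.0729 over the alternatives.

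In mismatch repair, 1 of 4 genes fell, against 12.6% of all tested features. EXO1, the exonuclease that removes the mismatched strand and also resects breaks, was at 17.7, 17.8 and 15.8 CPM in SPNS2 libraries and 20.6, 21.0 and 19.2 CPM in CTRL libraries (log2 fold change -0.24, SE 0.0605, edgeR adjusted p = 0.0134). The mismatch-recognition proteins MSH6, at 101 ± 1.51 CPM in SPNS2 and 105 ± 3.28 CPM in CTRL, and MSH3, at 10.53 ± 0.495 CPM in SPNS2 and 10.4 ± 0.314 CPM in CTRL (SD, n = 3 each), did not pass. PMS2, which nicks the strand, had a log2 fold change of 0.07 (SE 0.0659). Its value is uncertain, since near-identical pseudogene copies have rows of their own, of which PMS2P1 alone held 5564 counts over the 6 libraries.

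In base and nucleotide excision repair, 1 of 4 and 1 of 3 genes fell, against 12.6% of all tested features. UNG, the glycosylase that removes uracil from DNA, was at 81.6, 80.6 and 84.4 CPM in SPNS2 libraries and 91.6, 92.6 and 94.0 CPM in CTRL libraries (log2 fold change -0.17, SE 0.0305, edgeR adjusted p = 0.00199). ERCC2, the XPD helicase of the TFIIH complex, was at 78.4, 83.0 and 77.5 CPM in SPNS2 and 91.0, 89.4 and 89.9 CPM in CTRL (log2 fold change -0.18, SE 0.0332, edgeR adjusted p = 0.00276). For both genes the groups did not overlap.

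XRCC1, the scaffold for single-strand break repair, had groups that did not overlap in the other direction, at 51.3, 53.1 and 53.7 CPM in SPNS2 libraries and 49.0, 49.5 and 49.7 CPM in CTRL libraries. Its log2 fold change of 0.09 (SE 0.0324) missed the threshold at an adjusted p of 0.0549 by edgeR, and the range over the alternatives was 0.0354 to 0.197. PARP1, which binds strand breaks and recruits XRCC1, was at 329 ± 1.39 CPM in SPNS2 and 333 ± 4.38 CPM in CTRL (SD, n = 3 each; log2 fold change -0.02, SE 0.0232). OGG1, the glycosylase for oxidised guanine, XPC, which recognises distorted DNA, and ERCC1, a subunit of a repair endonuclease, had log2 fold changes of 0.01, -0.03 and -0.04 and overlapped between groups. ERCC1 shares its locus with genes on the other strand, and the strand setting used for counting is not given in the sources used here.

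Per kilobase, XRCC6 (145 CPM per kb in SPNS2, 163 in CTRL) and PARP1 (83.2 in SPNS2, 84.2 in CTRL) were the most abundant members. UNG (38.6 in SPNS2, 43.5 in CTRL) and XRCC5 (42.4 in SPNS2, 42.9 in CTRL) followed, and these 2 changed order between the groups. BRCA2 (1.21 in SPNS2, 1.18 in CTRL) and FANCB (1.35 in SPNS2, 1.56 in CTRL) were the least abundant. These levels divide CPM by the longest coding transcript, and the transcript mix of the cells can shift them.

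None of the 4 checkpoint kinases passed in the fit used throughout, and the kinases did not share a direction. The count was 0 of 4 by edgeR, by DESeq2 and by limma voom, against 24.5% of all tested features by edgeR in either direction. Whether a count from so few genes differs from that share was not tested. The count past the adjusted threshold by edgeR was 1 of 4 with library totals only, upper quartile scaling, the filter at a mean of 5 CPM or the replicate block, 2 of 4 with no filter, and 1 of 4 without SPNS2 library 3, CTRL library 2 or CTRL library 3. ATM was at 65.1, 68.4 and 61.1 CPM in SPNS2 libraries and 58.0, 61.8 and 57.9 CPM in CTRL libraries (log2 fold change 0.13, SE 0.0444, edgeR adjusted p = 0.0511). Its groups overlapped by 1 library on each side. ATM passed in 7 of 14 alternatives, among them without SPNS2 library 3 (0.17, adjusted p = 0.0194) and without CTRL library 2 (0.16, adjusted p = 0.0437), with a range of 0.0194 to 0.191 over the alternatives.

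CHEK1 was at 33.7, 30.6 and 32.4 CPM in SPNS2 libraries and 36.5, 39.3 and 33.3 CPM in CTRL libraries (log2 fold change -0.17, SE 0.0592, edgeR adjusted p = 0.0561). CTRL library 3 lay inside the SPNS2 range, and without it CHEK1 passed (-0.23, adjusted p = 0.0186; range over the alternatives 0.0186 to 0.178). ATR was at 24.4, 25.1 and 26.4 CPM in SPNS2 and 25.9, 27.2 and 24.6 CPM in CTRL, and CHEK2 at 37.2, 37.4 and 38.5 CPM in SPNS2 and 38.03, 34.95 and 36.9 CPM in CTRL. Both overlapped, with log2 fold changes of -0.03 (SE 0.0523) and 0.04 (SE 0.0406).

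**Figure D3:**
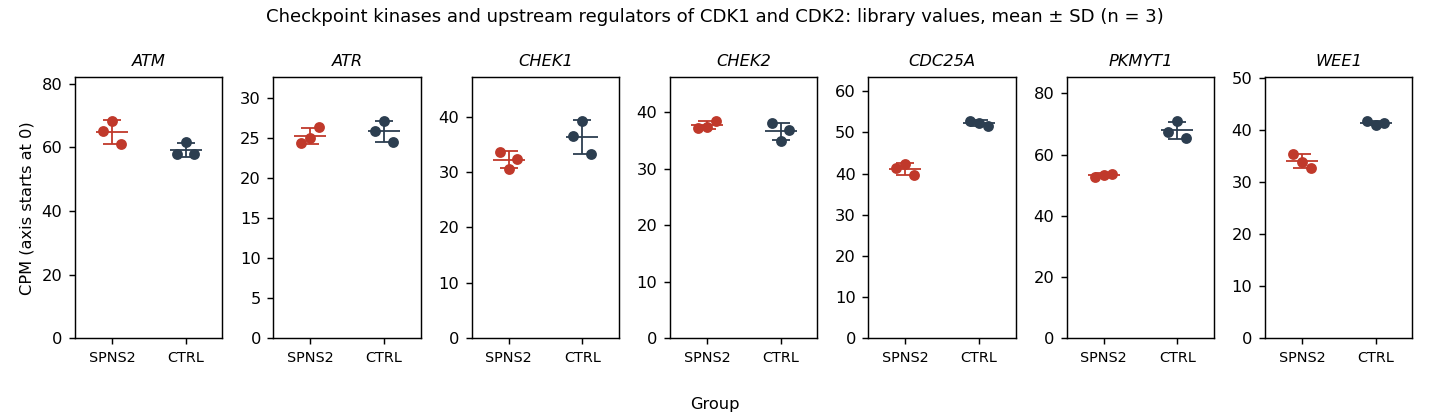
Each panel gives CPM of 1 gene in the 3 SPNS2 libraries (left) and the 3 CTRL libraries (right), with mean ± SD, on an axis from 0. The 4 kinases ATM, ATR, CHEK1 and CHEK2 overlap between groups, as do 7966 of 13308 tested features. CDC25A, PKMYT1 and WEE1 are lower in all 3 SPNS2 libraries. These 3 were chosen for the smallest p of 24 further checkpoint genes, of which 10 overlap, so they are not a like comparison for the kinases.

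Further genes of the same paths, from lists that were not part of the 38, are given for comparison. Over all tested features, 12.6% fell and 11.9% rose. Leaving out single libraries lowered these shares as well, to 8.63% to 10.7% for falls and 7.98% to 9.59% for rises. In the further checkpoint list, 12 of 24 genes fell, and the median log2 fold change of the list was -0.11; leaving out single libraries gave 8 to 10 falls, with 8 without SPNS2 library 2 or CTRL library 2. CDC25A, a phosphatase that activates cyclin-dependent kinases and is a target of CHEK1, was at 41.1 ± 1.38 CPM in SPNS2 and 52.2 ± 0.668 CPM in CTRL (log2 fold change -0.35, edgeR adjusted p = 5.92e-05). PKMYT1 and WEE1, kinases that inhibit CDK1, fell as well. PKMYT1 was at 53.4 ± 0.50 CPM in SPNS2 and 67.9 ± 2.89 CPM in CTRL (edgeR adjusted p = 7.45e-05), and WEE1 at 34.1 ± 1.36 CPM in SPNS2 and 41.4 ± 0.392 CPM in CTRL (edgeR adjusted p = 0.000437; SD, n = 3 each). The genes that fell thus include both an activator and inhibitors of cyclin-dependent kinases.

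Of 25 further recombination genes, 5 (20%) fell and 2 (8%) rose, against 12.6% and 11.9% of all tested features. Their median log2 fold change was -0.05. RBBP8, which starts resection, fell and was at 36.6 ± 0.468 CPM in SPNS2 and 41.1 ± 0.636 CPM in CTRL. SWI5, a recombination cofactor described in yeast and mouse, rose with a log2 fold change of 0.38 (edgeR adjusted p = 0.0116), and lost its call without SPNS2 library 3 (0.32, adjusted p = 0.0574) or CTRL library 2 (0.34, adjusted p = 0.0581). Without SPNS2 library 1 the falls in this list numbered 3, and the rises numbered 0 without SPNS2 library 3 and 1 without SPNS2 library 1, CTRL library 1 or CTRL library 3. Of all tested features, 8.63% fell without SPNS2 library 1, and 7.98% to 9.59% rose in the fits named for rises.

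Of 13 further Fanconi genes, 4 (30.8%) fell, against 12.6% of all tested features. The median of the list was -0.09 on the log2 scale. UBE2T, the ubiquitin-conjugating enzyme that works with FANCL, was at 29.95 ± 1.91 CPM in SPNS2 and 35.4 ± 1.67 CPM in CTRL (log2 fold change -0.24, edgeR adjusted p = 0.00769). CENPX, a FANCM partner that also sits at centromeres, fell by 0.19 and USP1, which takes ubiquitin off FANCD2, fell by 0.15 on the log2 scale. Without CTRL library 1 or 2, or SPNS2 library 1, 2 or 3, 2 genes of this list fell, and USP1 was not among them (adjusted p of 0.0748, 0.127, 0.0800, 0.115 and 0.0758 in that order of libraries). In those fits 8.63% to 10.7% of all tested features fell.

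The remaining lists are read against all tested features, of which 12.6% fell and 11.9% rose. In base excision the shares, 11.1% and 16.7%, were near these. They were 50% and 0% in mismatch repair, and 25% and 12.5% in end joining. Of 6 further mismatch repair genes, 3 fell, among them the sliding clamp PCNA, at 154 ± 4.07 CPM in SPNS2 and 179 ± 4.74 CPM in CTRL, and the replicative ligase LIG1 (-0.22 on the log2 scale). Of 18 further base excision genes, 2 fell and 3 rose: the flap nuclease FEN1, which also trims Okazaki fragments, was at 103 ± 4.34 CPM in SPNS2 and 126 ± 3.09 CPM in CTRL, PARP2 fell by 0.18, and PARP3, an ADP-ribosyltransferase active at double-strand breaks, rose by 0.33 on the log2 scale. The rises in this list numbered 1 without SPNS2 library 3, CTRL library 2 or CTRL library 3, and with the replicate number as a term. In those fits 8.4% to 9.78% of all tested features rose. Of 8 further end joining genes, 2 fell, among them PAXX (-0.23), and 1 rose, DCLRE1C, the nuclease Artemis (0.20, and not without SPNS2 library 3, where its adjusted p was 0.0571).

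Of 14 further nucleotide excision genes, 2 (14.3%) fell and 1 (7.14%) rose, against 12.6% and 11.9% of all tested features. The XPC partner RAD23B (-0.11) was among the falls, and the rise was in ERCC6, which couples repair to transcription (0.21 on the log2 scale). Leaving out CTRL library 1 or 3 gave 3 falls there, beside 10.7% and 9.6% of all tested features that fell in those fits. Of 12 translesion and theta polymerase genes, 1 fell and 1 rose (8.33% each). The fall was in POLQ, the polymerase of theta-mediated end joining, at 37.0 ± 1.02 CPM in SPNS2 and 46.0 ± 1.04 CPM in CTRL (log2 fold change -0.31, edgeR adjusted p = 0.000143). In that list POLI rose by 0.17 (adjusted p = 0.0368), and its call was lost without SPNS2 library 2 or 3 or CTRL library 2 or 3 (adjusted p of 0.125, 0.0958, 0.0542 and 0.120), with DESeq2 (0.107) and with the replicate number as a term. HLTF, at 0.10 on the log2 scale, missed the threshold (adjusted p = 0.0517).

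Genes of DNA replication and mitosis were also compared. Of 29 proliferation genes, 26 (89.7%) fell, against 12.6% of all tested features, and the median log2 fold change was -0.23. In this list 29 of 29 values were below 0, beside 6559 of 13308 over all tested features. Leaving out single libraries gave 25 or 26 falls, beside 8.63% to 10.7% of all tested features that fell in those fits. MCM10, a replication factor, was at 53.6 ± 0.909 CPM in SPNS2 and 70.2 ± 0.622 CPM in CTRL, TYMS, which makes thymidylate, at 159 ± 2.62 CPM in SPNS2 and 204 ± 3.14 CPM in CTRL, TOP2A at 211 ± 3.05 CPM in SPNS2 and 263 ± 5.66 CPM in CTRL, and the mitotic kinase PLK1 at 69.7 ± 1.33 CPM in SPNS2 and 88.2 ± 1.80 CPM in CTRL (SD, n = 3 each). The part of these changes in those of the repair genes was not tested. In bulk RNA, fewer cycling cells and less RNA per cell cannot be told apart.

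**Figure D4:**
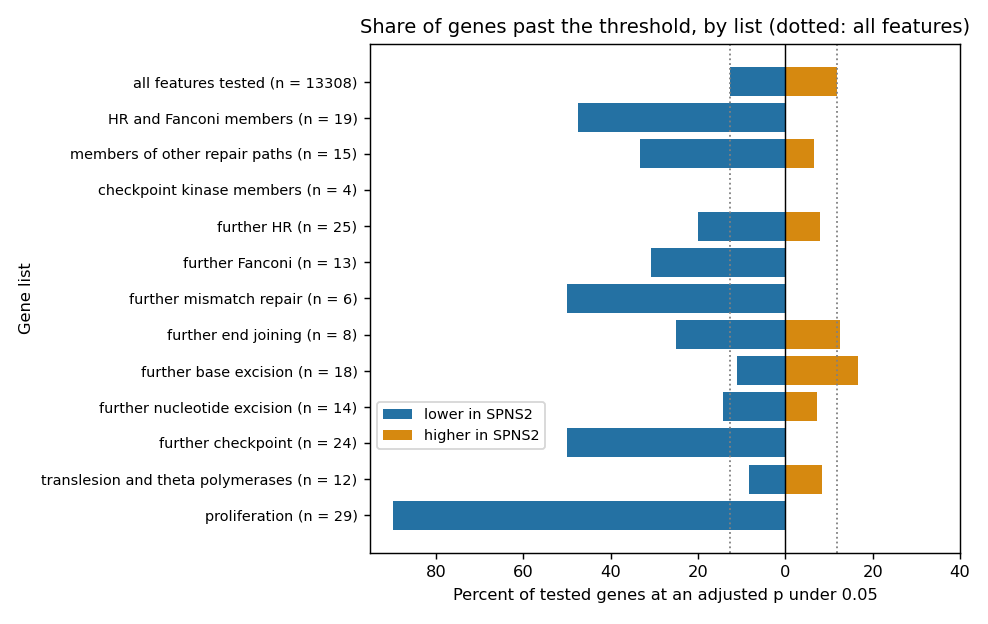
Bars give the percent of tested genes that were lower (blue, left) or higher (orange, right) in SPNS2 at an adjusted p under 0.05 by edgeR, for each list, with the number tested; dotted lines mark all features, 12.6% lower and 11.9% higher. The share of falls is 47.4% for the recombination and Fanconi members, 33.3% for members of other repair paths, 0% for the checkpoint kinases and 89.7% for proliferation genes. In the further lists it is 20% for recombination, 30.8% for Fanconi, 50% for mismatch repair, 25% for end joining and 11.1% for base excision. It is 14.3% for further nucleotide excision, 50% for further checkpoint genes and 8.33% for translesion and theta polymerases.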

How the data were processed

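RNA had been extracted with a QIAGEN kit and sequenced from stranded TruSeq mRNA libraries, as the labels' protocols say. The authors deposited estimated counts per gene, not normalized, and the submitters' processing notes name Salmon. Its version, genome build and annotation: not given in the sources used here. All deposited values were whole, so rounding changed nothing. Members were matched by Ensembl ID without version through a table of gene names (38 of 38).

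Low counts were removed with filterByExpr (at least 10 counts, 15 in total), TMM gave scaling factors of 0.993 to 1.01, and the quasi-likelihood test of edgeR 4.0.16 (R 4.3.3) compared the groups with no other term. Benjamini-Hochberg adjustment covered all 13308 tested features, with a threshold of 0.05. Dividing the size of the log2 fold change by the square root of F gave its standard error. CPM uses TMM-scaled totals. A count of 0 allows up to 3 counts, or 0.0778 to 0.105 CPM, for counting error only. Replicates differed beyond sampling noise (chi-square per degree of freedom 2.89 to 5.85). The procedure was tested on simulated counts. That test required recovery only of changes larger than those of the members, and recovery at the size of their changes is not given here. Alternatives were other scalings, DESeq2 1.42.0, limma voom 3.58.1, other filters, a replicate term and leaving out each library.

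The members and lists were chosen with earlier results of these data known. All members are accounted for. From each further list the 3 genes with the smallest p are named, and 4 of the proliferation list. Where that rule chose a gene that is not reported here, only the others are named. TOP3A, GTF2H1 and E2F2 were not analysed here. BARD1, PALB2, BRCA2, BLM and other members that did not pass are named because the whole list is described. Promoter motifs and per-kilobase levels were added after the values had been seen.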

Additional observations from a re-analysis of the deposited data

How the results depend on the processing

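Of 530 values of the members under alternative settings, 487 kept their direction and their side of the threshold, 14 lost a call, 14 gained one and 15 changed sign. None of the sign changes was in a member past the threshold, and the smallest adjusted p among them was 0.761. BLM, near 0 in every fit, was at 2.56e-05 with RLE size factors, 0.00882 with library totals only, 0.0129 with upper quartile scaling, 0.00581 with the filter at a mean of 5 CPM and 0.00012 with the replicate block. Leaving out single libraries put BLM between -0.0277 and 0.0166, MSH3 between -0.0071 and 0.0573, OGG1 between -0.0675 and 0.0563, XRCC5 between -0.0266 and 0.00304, XPC between -0.0553 and 0.000163 and ATR between -0.0685 and 0.0019. FANCG also missed the threshold with library totals only (adjusted p = 0.0557), upper quartile scaling (0.0577), DESeq2 (0.126) and the replicate block (0.0638). The median of recombination and Fanconi genes was -0.12 with upper quartile scaling and -0.14 with EXO1 counted among them; leaving out single libraries gave -0.15 to -0.12 for it and -0.0531 to -0.0144 for other repair paths. The number of checkpoint kinases past the threshold was 1 with library totals only, upper quartile scaling, the filter at a mean of 5 CPM or the replicate block, 2 with no filter, and 0 to 1 without single libraries. With the replicate block, 15 members passed, 13 lower and 2 higher, against 2723 of all features. Same-numbered libraries did not deviate together (correlations -0.00943, 0.0312 and -0.0262). These values cannot exclude that libraries of the same number were handled together, since a small shared effect could be hidden by counting noise. Settings for genes of the further lists were added after seeing the data; the cause of these shifts was not tested. Genes at few CPM, such as FANCB and OGG1, have standard errors that hide changes of the size seen in other members.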
